A study of Mus musculus with 6 samples.

Results

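Translation factors carry the ribosome from the start codon to the end of the message, and aminoacyl-tRNA synthetases load each tRNA with its amino acid. Eukaryotic initiation factors (eIFs) bring the initiator tRNA and the capped mRNA to the small ribosomal subunit, elongation factors (eEFs) deliver charged tRNAs to the moving ribosome, and the activity of both is set by kinases and inhibitors that respond to growth signals and to stress. In the olfactory epithelium the horizontal basal cells are a reserve of normally quiescent stem cells, which leave quiescence when the overlying tissue is lost.

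The genes described here are the rows of the deposited table whose symbol begins with Eif1 to Eif6, or with Eef1 or Eef2, or is that of a cytosolic or mitochondrial tRNA synthetase (a letter followed by ars or ars2, and Eprs). Entries that join several symbols were left out, which removed Aars, Eif2ak2 and Eif4ebp3, and so was the sex-linked pair Eif2s3x and Eif2s3y. The rule gave 68 genes of the 8078 entries in the table. They comprise 6 start site factors, 8 genes of eIF2, its exchange factor eIF2B and Eif2a, 2 kinases of eIF2, 12 subunits of eIF3, 6 genes of the cap-binding complex, 3 binding partners of eIF4E, 2 late factors, 5 genes named for elongation, 13 cytosolic and 8 mitochondrial synthetases. The last 3, Eif2c1, Eif2c2 and Eif2c4, match by an old symbol only, since they encode argonaute proteins of RNA silencing. Synthetases were called cytosolic or mitochondrial by symbol ending alone. Gars and Kars, whose products are known to serve both compartments, thus count as cytosolic here.

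RNA was sequenced from cells of 12 wk old mice of the strain label B6;KRT5-CreER;Ai9 fl(Stop)TdTomato, in which tamoxifen given 2 weeks before sorting let a Cre under the keratin 5 promoter switch on a red fluorescent protein, and sorting took the red cells. All 6 libraries share these alleles and the tamoxifen. The 3 uninjured libraries came from untreated epithelium, and the 3 injured libraries from epithelium taken 18 h after the end of an 8 h exposure to 180 ppm of methyl bromide, a gas that destroys much of the epithelium. Cells of several animals were pooled in each library, so a library is the replicate and p-values measure the spread between such pools. Keratin 5 is also active outside the horizontal basal cells, which limits the label as a mark of one cell type.

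The table was taken to hold FPKM, that is, fragments scaled to transcript length and to the number of mapped fragments. Read depth was unknown, and summed FPKM lay between 164265 and 231755 per library. The single entry Mir703 took 22.0 to 25.4% of that sum in uninjured and 8.01 to 18.6% in injured libraries. Of the 8 markers fixed for horizontal basal cells, 5 had an entry of their own, Trp63 among them, and their summed level was 252 to 288 FPKM in uninjured and 165 to 335 in injured libraries. The mature neuron markers (7 of 9 with an entry) summed to 435 to 748 FPKM in uninjured libraries and to 146, 361 and 126 in injured replicates 1 to 3, and those of globose basal cells and immature neurons (6 of 7) to 16.3 to 29.0 and to 21.8, 183 and 18.1. Summed sustentacular markers (3 of 5) were at 123 to 146 and 61.1 to 100.03, gland and respiratory markers (3 of 7) at 3056 to 4999 and 1196 to 2323, fibroblast markers (3 of 5) at 126 to 220 and 32.8 to 101, and leukocyte markers (3 of 7) at 14.3 to 37.0 and 21.4 to 101. Endothelial and erythroid markers had no entry of their own. No marker with an entry stood at the lowest value of the table in every library. Xist, transcribed from the inactive X, averaged 29.4 ± 3.82 FPKM (SD, n = 3) in uninjured and 0.324 ± 0.249 (SD, n = 3) in injured libraries, and 4 Y-linked genes stood higher in the injured libraries by group mean. Uninjured replicate 1 stood apart in these, with Eif2s3y at 18.8 FPKM against 2.73 and 2.55 in the other uninjured and 21.1 to 29.3 in the injured libraries, beside its Xist of 27.4. The labels used here give no sex, so injury and the sex of the pooled animals cannot be told apart. The part of these differences in the results below was not tested.

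Promoter sequences from RefSeq (build GRCm38.p6) could be matched to 53 of the 68 genes, 4 of them by an older symbol, and they are shown here for members that the results turn on. The first set holds the core of the CARE element (C/EBP-ATF response element), TGATGNAA on either strand, the kind of sequence that the stress factor ATF4 and its partners are known to bind in genes of amino acid supply. It occurs in 3.97% of 32851 RefSeq promoters, each a window of 300 bases that reaches past the stretches printed here, and among the cytosolic synthetases with a promoter in the table in 4 of 8. Because only 8 of 13 of these synthetases had a promoter, under the 80% needed, the share is void as a property of the group. Each line gives 80 bases before and 20 bases after the RefSeq start, 5′ to 3′ on the strand of the gene, with the core in capitals.

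Gars (glycine, chr6:55037921-55038020, plus strand): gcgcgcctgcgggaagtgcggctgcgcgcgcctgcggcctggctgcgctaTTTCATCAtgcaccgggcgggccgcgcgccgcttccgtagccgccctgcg
Iars (isoleucine, chr13:49682050-49682149, plus strand): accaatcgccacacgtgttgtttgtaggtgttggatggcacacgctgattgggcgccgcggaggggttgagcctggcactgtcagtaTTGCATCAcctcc
Tars (threonine, chr15:11399639-11399738, minus strand): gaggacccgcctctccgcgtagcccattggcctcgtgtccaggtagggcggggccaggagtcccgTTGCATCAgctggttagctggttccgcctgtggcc
Yars (tyrosine, chr4:129189823-129189922, plus strand): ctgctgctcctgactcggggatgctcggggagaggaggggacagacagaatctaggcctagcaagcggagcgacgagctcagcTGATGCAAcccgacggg

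The core began at base -30 in Gars, -15 in Tars, 8 in Iars and 4 in Yars, counted with the start as base 1 and no base 0. The next pair shows the E-box CACGTG, which reads the same on both strands and is bound by Myc and related factors. It occurs in 7.15% of all promoters and in 11 of 69 member promoters (15.9%). Because only 53 of 68 members (77.9%) were matched, under the 80% needed, that share is void as a property of the members. In Eif5a the E-box was found in 3 of 6 RefSeq promoters, of which 1 stretch is shown. These promoters overlap in part, and the site shown is counted in more than 1 of them. In Eif4g1 the E-box stood on both sides of the start. The promoters of Iars and Tars hold an E-box as well, that of Iars within the line above in lower case and that of Tars outside it. So do promoters of Eef2k, Eif1b, Eif3f, Eif3k and Eif4e. Of the genes named here with an E-box, only Eif5a and Tars had injured and uninjured libraries without overlap. In all the others, Eif4g1 and Iars among them, the libraries overlapped.

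Eif5a (chr11:69921387-69921506, minus strand, 120 bases up to the start): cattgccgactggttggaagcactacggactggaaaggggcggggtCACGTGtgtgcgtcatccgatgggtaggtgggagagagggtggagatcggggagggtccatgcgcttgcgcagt
Eif4g1 (chr16:20672647-20672751, plus strand, 80 bases before and 25 after the start): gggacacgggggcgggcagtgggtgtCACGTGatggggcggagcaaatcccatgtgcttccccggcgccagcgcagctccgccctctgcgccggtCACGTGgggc

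Eef1a1 and Eif3f belong to the messages known to begin with a pyrimidine tract (TOP mRNAs), as those of ribosomal proteins do. Their start regions are shown, 20 bases to each side of the RefSeq start, with the longest pyrimidine run near the start in capitals. That run spans bases -5 to 5 in Eef1a1 and -4 to 11 in Eif3f. Whether it is the tract that begins the message was not tested. A C followed by at least 4 pyrimidines within 5 bases of the start occurs in 18.3% of all promoters. Among the member promoters it was found in 18 of 69 (26.1%), a share that is void in the same way, with 53 of 68 members matched. It was absent from Eif4b, another TOP mRNA named below, and present in Gars, Eif3b and Eif4g1 among others. The tract was not compared with the changes. A match of any of these letters is a description of the sequence and no evidence that a factor binds.

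Eef1a1 (chr9:78481705-78481744, minus strand): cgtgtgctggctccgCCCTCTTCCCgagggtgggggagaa
Eif3f (chr7:108934395-108934434, plus strand): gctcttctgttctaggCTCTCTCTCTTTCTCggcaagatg

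The comparison asks how the sorted cells 18 h after the lesion differ from resting ones. Changes are given as the injured mean less the uninjured mean of log2(FPKM + 1), which understates the change of low genes. Of the translation genes 51 of 68 had a change above 0, with a median of 0.41, against 62.9% and a median of 0.16 over all 7987 genes tested. Among the groups of 8 or more genes the cytosolic synthetases had the highest median, 0.60, with 13 of 13 changes above 0. Some smaller groups had higher medians, the late factors (1.03), the eIF2 kinases (0.65) and the start site factors (0.63). The mitochondrial synthetases had a median of -0.04, with 4 of 8 above 0. The 2 groups of synthetases follow the symbol ending, with Gars and Kars in the cytosolic one. None of the 68 passed the test over the 6 libraries. With limma and Benjamini-Hochberg adjustment over all genes, 0 of 68 were called higher (0% of all genes) and 0 lower (0.0125%), also by limma without its trend and robust steps, and the lowest adjusted p was 0.191, for Gars. Over all genes the only call with those steps was Xist, as lower, at a limma adjusted p of 0.00022.

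At an unadjusted p under 0.05, 14 of the 68 were higher (7.15% of all genes) and 0 lower (4.04%). All 68 had passed the filter of a mean of 1 FPKM. In 18 of them every injured library lay above every uninjured one, which held for 12.0% of all genes, and in 0 below, which held for 6.75%. After upper-quartile scaling, which brings the median of all genes to -0.01, 43 of 68 changes were above 0 against 48.8% of all genes, and 13 genes lay wholly higher and 2 wholly lower against 7.19% and 11.4%. With Mir703 left out and the libraries rescaled, 45 of 68 changes were above 0 against 51.4%, and 16 genes lay wholly higher and 3 wholly lower against 8.70% and 10.3%. In bulk RNA fewer cells of a type and less RNA per cell cannot be told apart.

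Injured replicate 2 differed from the other injured libraries in these genes. In injured replicate 1, 49 of the 68 lay above all uninjured libraries, where 42.8% of all genes did, and in injured replicate 3 there were 46, where 44.7% of all genes did. In injured replicate 2 the number was 25, against 33.9%, and 29 genes lay within the uninjured range, against 35.4%. In injured replicates 1 and 3, 14 genes each lay within that range, against 29.2% and 31.5%. The median difference from the mean of the uninjured libraries was 0.56, 0.06 and 0.64 for the 68 genes in injured replicates 1 to 3, and 0.14, 0.01 and 0.18 for all genes. This is also the library with the summed level of 183 FPKM for markers of globose basal cells and immature neurons given above, and the part of that in the result was not tested. Without it, which leaves 2 injured libraries, 9 of the 68 passed as higher (3.52% of all genes) and 0 as lower (1.17%), and 40 lay wholly above the uninjured libraries (29.7%) and 2 wholly below (14.4%). The 9 that passed were Eif1a, Eif2s1, Eif3b, Eif3i, Eif4g1, Eif5a, Eef1e1, Kars and Rars. With any other single library left out, 0 of the 68 passed. Injured replicate 2 was the injured library lowest in these genes, so leaving it out favours calls as higher. The calls and p-values without it, here and below, are therefore no separate evidence.

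**Figure D1:**
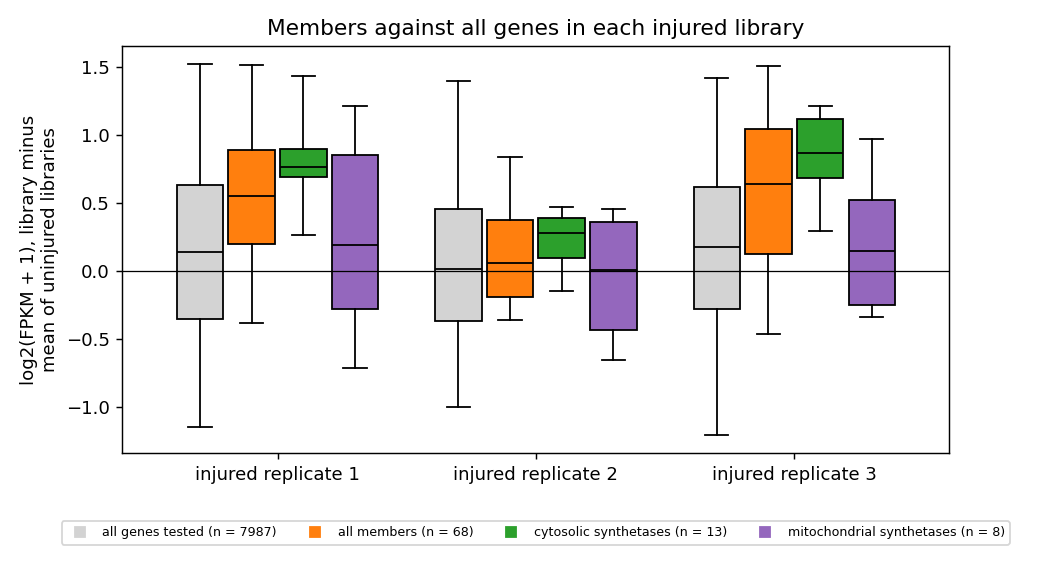
Difference of each injured library from the mean of the 3 uninjured libraries, on the log2(FPKM + 1) scale, for all 7987 genes tested, the 68 members, the 13 cytosolic and the 8 mitochondrial synthetases. Boxes span the quartiles with the median as a line, whiskers reach the 5th and 95th percentiles over genes, and the members' medians of 0.56, 0.06 and 0.64 show injured replicate 2 near the uninjured level.

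**Figure D2:**
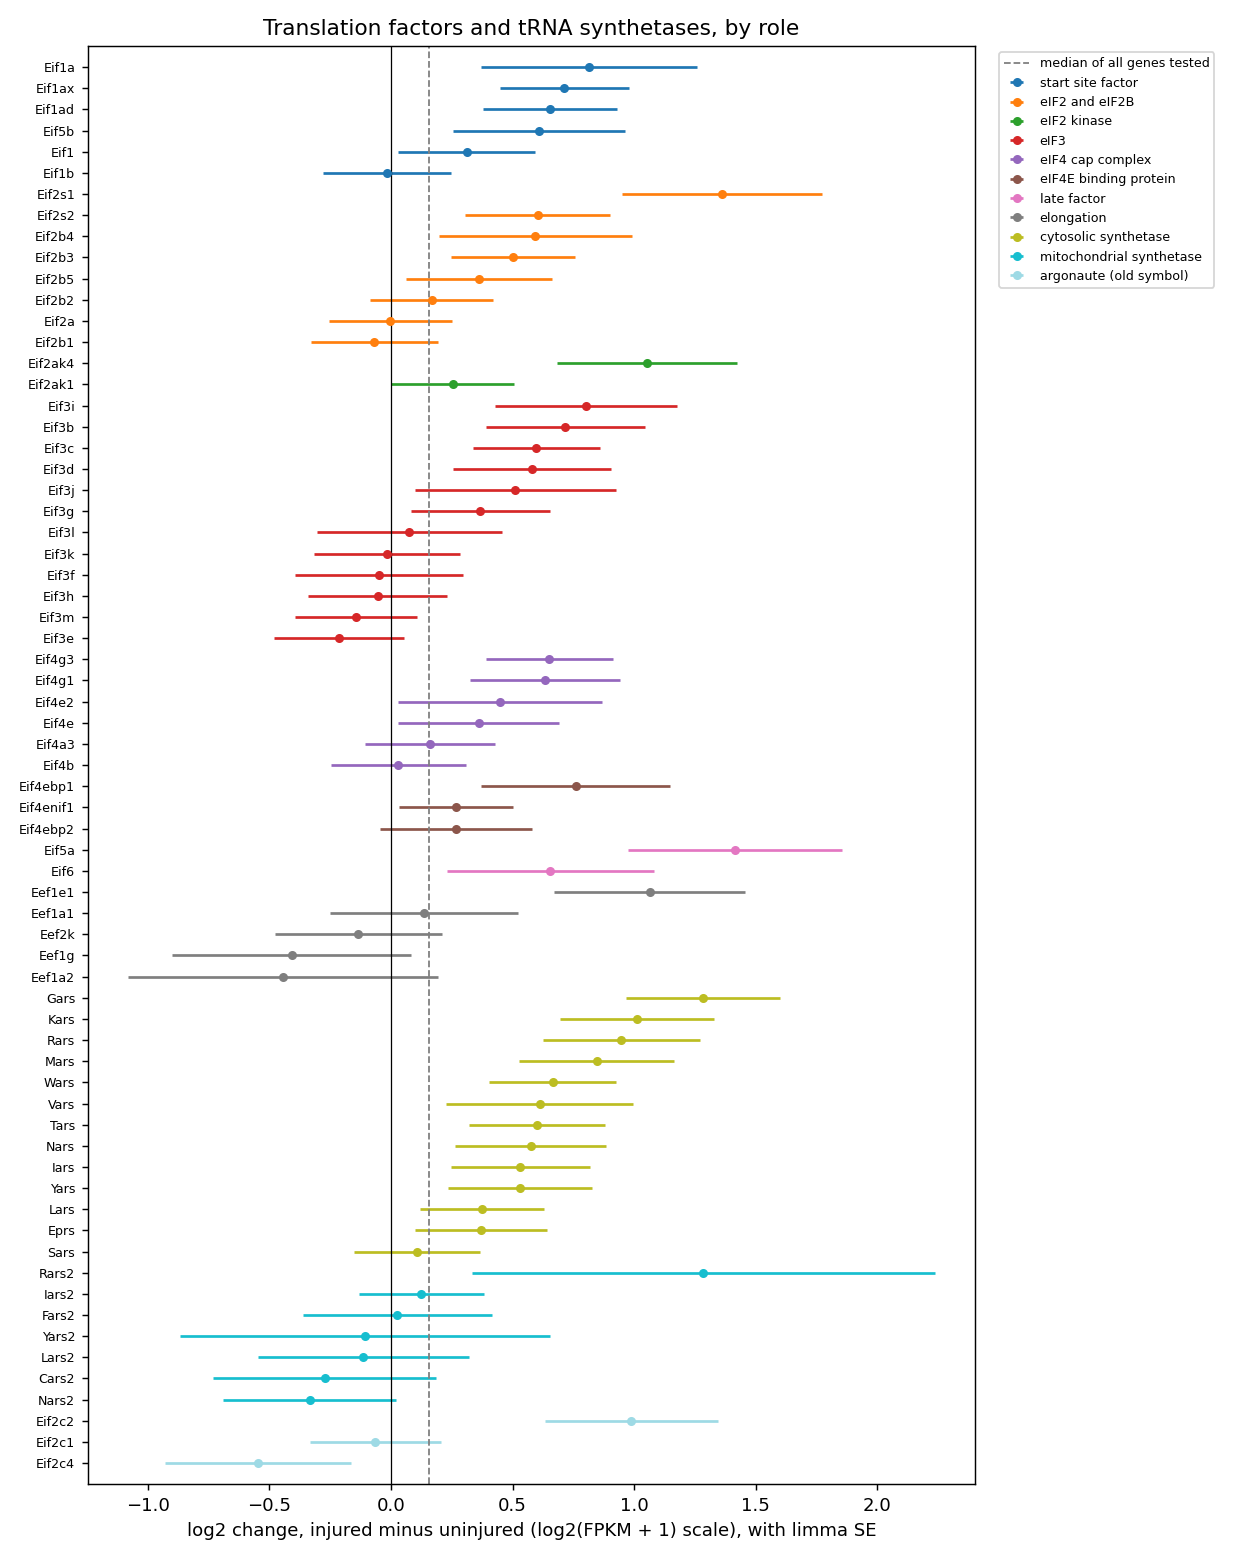
Change of the members (1 is not plotted), as the injured less the uninjured mean of log2(FPKM + 1), ordered by role and coloured by it, with limma's standard error as bars (n = 3 libraries per group). The dashed line is the median of all genes tested, 0.16, and all 13 cytosolic synthetases lie above 0.

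Among the start site factors, which help the small subunit find the start codon, 5 of 6 changes were above 0, with a median of 0.63. Values of single libraries are given in the order of replicates 1 to 3. Eif1a, the autosomal gene of eIF1A, was at 29.8, 20.2 and 20.6 FPKM in uninjured and at 52.1, 19.4 and 69.8 in injured libraries. Injured replicates 1 and 3 stood above all uninjured libraries and injured replicate 2 below them, and the change was 0.81 ± 0.44 (SE) with a limma adjusted p of 0.525, or 0.0420 without injured replicate 2. Its X-linked counterpart Eif1ax was at 26.9, 24.8 and 28.9 and at 52.1, 35.1 and 48.5 FPKM. Here the groups did not overlap, with a change of 0.71 ± 0.27 (SE) and a limma adjusted p of 0.376. The most abundant of the group, Eif1, which guards start codon choice, was at 61.7 ± 8.82 FPKM (SD, n = 3) before and 77.0 ± 12.2 (SD, n = 3) after injury, and its relative Eif1b at 20.8 ± 2.07 and 20.8 ± 4.90. The libraries of both genes overlapped between the groups.

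The factor eIF2 carries the initiator tRNA, and its alpha subunit, encoded by Eif2s1, is the target of the stress kinases. Eif2s1 was at 10.2, 6.48 and 9.12 FPKM in uninjured and at 40.6, 11.8 and 25.9 in injured libraries. All 3 injured values lay above the uninjured ones, though injured replicate 2 only narrowly, and the group means were 8.62 ± 1.93 and 26.1 ± 14.4 FPKM (SD, n = 3). The change of 1.36 ± 0.41 (SE) had a limma adjusted p of 0.314, and one of 0.0256 without injured replicate 2. The beta subunit Eif2s2 was at 11.9, 15.8 and 13.9 and at 15.6, 20.4 and 30.9 FPKM, where injured replicate 1 lay within the uninjured range. Of the 5 subunits of eIF2B, the factor that recharges eIF2 with GTP, 4 had changes above 0, from -0.07 for Eif2b1 to 0.59 for Eif2b4. Eif2a, which encodes a separate factor able to bind initiator tRNA, stood at 41.9 ± 2.46 FPKM before and 42.1 ± 5.36 after injury (SD, n = 3).

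Of the kinases that phosphorylate eIF2 alpha, Eif2ak1 and Eif2ak4 had entries of their own. Eif2ak4 encodes GCN2, which senses uncharged tRNA, and was at 3.90, 2.63 and 3.79 FPKM in uninjured and at 13.5, 4.87 and 7.92 in injured libraries. Every injured library was higher than every uninjured one, with a change of 1.05 ± 0.37 (SE) and a limma adjusted p of 0.365 (0.0547 without injured replicate 2). Eif2ak1, the heme-regulated kinase, was at 10.8 ± 1.33 and 13.1 ± 2.35 FPKM (SD, n = 3), with overlapping libraries.

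The scaffold eIF3 joins the small subunit to the mRNA. A division among the 12 of its subunits with an entry was noticed after their values were seen and is given with no test. Changes of the subunits b, c, d, g, i and j were all above 0, from 0.37 to 0.80 with a median of 0.59. Those of e, f, h, k, l and m lay between -0.21 and 0.07 with a median of -0.05, and 1 of these 6 was above 0. The medians were 0.41 and -0.24 under upper-quartile scaling and 0.41 and -0.18 under quantile normalization. With each library left out in turn all 6 of the first set stayed above 0, while 0 to 4 of the second were. The sets were formed from these same changes, so their medians and signs do not test the division. Of the 12, only Eif3c had groups without overlap, where 12.0% of all genes lay wholly higher.

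Eif3i was at 57.8, 65.6 and 77.1 FPKM in uninjured and at 147, 67.2 and 159 in injured libraries. Injured replicates 1 and 3 were about as high as each other and injured replicate 2 within the uninjured range, for a change of 0.80 ± 0.37 (SE) and a limma adjusted p of 0.463, or 0.0438 without that library. Eif3b, the large core subunit, followed the same order, at 8.53, 10.1 and 9.46 and at 18.8, 9.46 and 22.8 FPKM (limma adjusted p of 0.452, and 0.0415 without injured replicate 2). Eif3f was at 63.4, 111 and 114 and at 101.5, 106 and 67.2 FPKM, with wide overlap. The lowest change of the complex was that of Eif3e, at 62.1 ± 8.60 FPKM before and 53.3 ± 5.10 after injury (SD, n = 3), a difference within the combined spread.

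**Figure D3:**
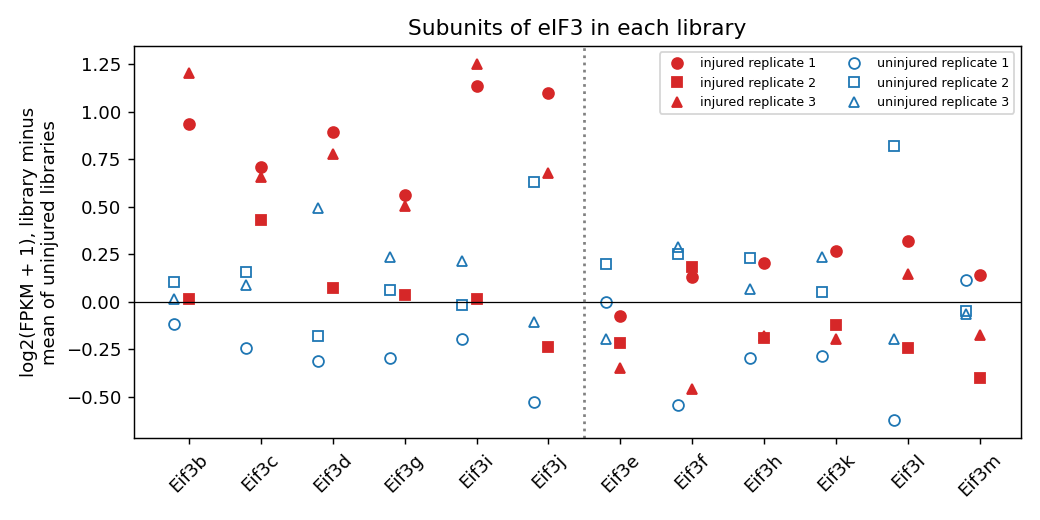
Level of each of 12 eIF3 subunit genes in each library as the difference from the mean of the uninjured libraries, on the log2(FPKM + 1) scale. Filled red symbols are injured and open blue ones uninjured libraries, with the same shape for the same replicate number, and the dotted line parts the subunits with median changes of 0.59 and -0.05.

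In the cap-binding group, which recognises the 5′ cap and unwinds the leader of the message, all 6 changes were above 0 (4 of 6 after upper-quartile scaling), with a median of 0.40. The scaffold gene Eif4g1 was at 16.8, 17.7 and 16.7 FPKM in uninjured libraries, the tightest spread of the 68 in relation to the mean, and at 34.1, 17.0 and 33.7 in injured ones. Injured replicates 1 and 3 agreed closely and injured replicate 2 lay within the uninjured range (change 0.63 ± 0.31 (SE), limma adjusted p of 0.478, and 0.0442 without injured replicate 2). Its paralogue Eif4g3 was at 15.8, 21.7 and 16.0 and at 28.3, 32.7 and 24.4 FPKM, without overlap of the groups and with injured replicate 2 the highest. The change of Eif4g3 was 0.65 ± 0.26 (SE), at a limma adjusted p of 0.397. The cap-binding protein gene Eif4e was at 12.1, 10.8 and 20.7 and at 22.0, 12.4 and 22.0 FPKM, and its relative Eif4e2 at 5.53, 13.2 and 5.93 and at 10.3, 6.48 and 18.3, both with overlap. Eif4b, a helper of the helicase, was at 71.4 ± 4.23 and 73.5 ± 11.7 FPKM (SD, n = 3).

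The binding partners of eIF4E include the 4E-BPs, which keep it from the scaffold until the growth kinase mTORC1 phosphorylates them. Eif4ebp1 was at 3.41, 5.91 and 7.98 FPKM in uninjured and at 14.6, 5.65 and 11.8 in injured libraries, again with injured replicate 2 inside the uninjured range (change 0.76 ± 0.39 (SE), limma adjusted p of 0.492). Eif4ebp2, the more abundant of the pair per length, was at 30.9 ± 3.59 and 38.8 ± 13.1 FPKM (SD, n = 3). Eif4enif1, whose product carries eIF4E into the nucleus, was at 10.4, 9.16 and 9.97 and at 11.3, 12.4 and 12.6 FPKM. The groups of Eif4enif1 did not overlap but differed by only 0.27 ± 0.23 (SE).

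Eif5a had the largest change of the 68 on the log2(FPKM + 1) scale. Its product, the only protein known to carry the modified amino acid hypusine, relieves ribosomes that stall on difficult peptide bonds. It was at 47.4, 72.0 and 67.0 FPKM in uninjured and at 231, 80.9 and 238 in injured libraries, or 62.1 ± 13.0 and 183 ± 88.8 (SD, n = 3). All injured libraries lay above all uninjured ones, with injured replicates 1 and 3 far apart from the rest and injured replicate 2 just above the uninjured range. The change was 1.41 ± 0.44 (SE) with a limma adjusted p of 0.316, or 1.92 with 0.0182 without injured replicate 2. With 0.1 added in place of 1, the changes of Rars2 (2.349) and Eif2s1 (1.445) exceeded that of Eif5a (1.426). Eif6, which holds the large subunit apart until it is needed, was at 7.54, 14.9 and 14.6 and at 20.2, 10.4 and 33.3 FPKM, with overlap through injured replicate 2.

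**Figure D4:**
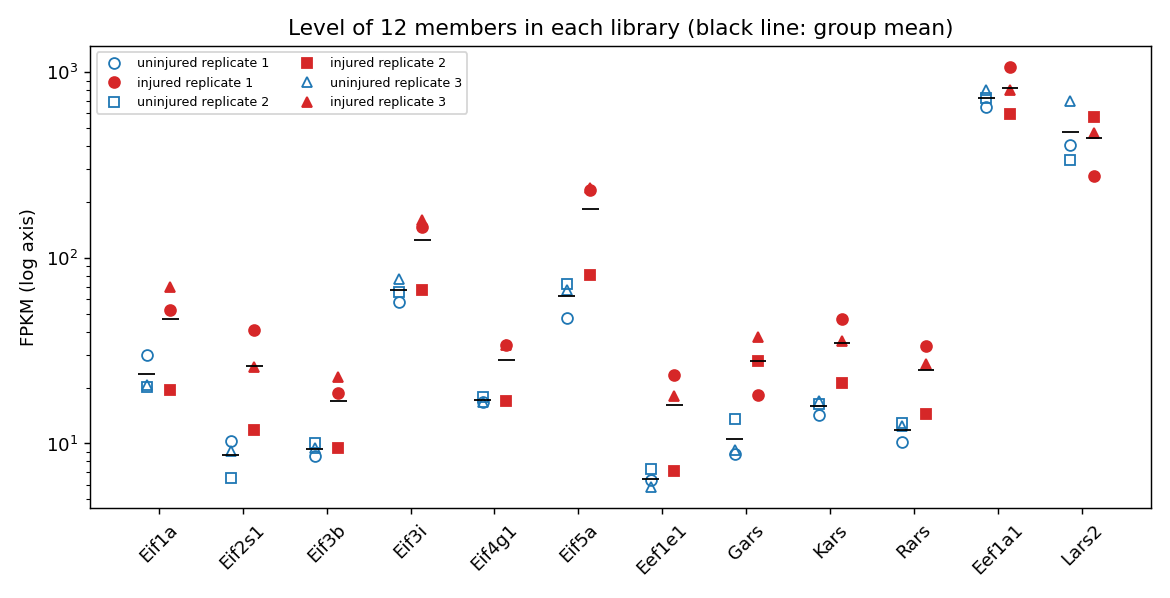
FPKM on a log axis of 12 members in each library, with open blue symbols for uninjured and filled red ones for injured libraries and a black line at each group mean. For Eif5a injured replicates 1 and 3 sit at 231 and 238 against 47.4 to 72.0 in uninjured libraries, with injured replicate 2 at 80.9, while for Eef1a1 and Lars2 the groups overlap.

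The elongation genes showed no shift in common, with 2 of 5 changes above 0. Eef1a1, which delivers charged tRNA to the ribosome and is the most abundant member, ranking 11 of all entries by mean FPKM, was at 651, 729 and 806 FPKM in uninjured and at 1066.5, 594 and 799 in injured libraries. The injured values reached both above and below the uninjured range, and the change of 0.13 ± 0.39 (SE) became -0.055 after upper-quartile scaling. Eef1g, part of its exchange factor, was at 38.5, 144 and 45.9 and at 48.5, 34.8 and 64.1 FPKM, where uninjured replicate 2 stood apart from all others. The muscle and neuron form Eef1a2 was at 1.89 ± 0.569 and 1.50 ± 1.89 FPKM (SD, n = 3), and Eef2k, the kinase that halts elongation by acting on eEF2, at 7.21 ± 1.46 and 6.80 ± 2.92. How reads from near-identical copies of a gene, as those of Eef1a1 are known to exist, were assigned was not given in the sources used here.

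Eef1e1 is named for elongation, but its product is known chiefly as a scaffold of the multisynthetase complex. It was at 6.35, 7.26 and 5.81 FPKM in uninjured and at 23.5, 7.08 and 18.1 in injured libraries, so that injured replicates 1 and 3 stood above and injured replicate 2 within the uninjured range. Its change was 1.06 ± 0.39 (SE) at a limma adjusted p of 0.377, and 0.0202 without injured replicate 2. The TOP mRNAs Eef1a1, Eef1g, Eif3e, Eif3f, Eif3h and Eif4b, a set put together after their values were seen, had changes from -0.41 to 0.13 with a median of -0.05.

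For the cytosolic synthetases the groups did not overlap in 7 of 13 genes, all higher, where 12.0% of all genes did, and 5 of 13 had an unadjusted p under 0.05 in that direction, where 7.15% of all genes did. After upper-quartile scaling 12 of 13 changes were above 0, all but that of Sars, and 5 genes did not overlap (7.19% of all genes). Gars, for glycine, was at 8.76, 13.6 and 9.27 FPKM in uninjured and at 18.2, 27.8 and 37.2 in injured libraries. Every injured value was higher than every uninjured one and injured replicate 2 lay between the other injured ones. The change of Gars was 1.28 ± 0.32 (SE) with a limma adjusted p of 0.191, and 0.0884 without injured replicate 2.

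Kars, for lysine, was at 14.3, 16.2 and 17.0 FPKM in uninjured and at 47.1, 21.1 and 35.5 in injured libraries. Rars, for arginine, was at 10.2, 12.8 and 12.4 and at 33.4, 14.5 and 26.8 FPKM. In both the groups were apart, with injured replicate 2 nearest to the uninjured values. Their changes of 1.01 ± 0.32 and 0.95 ± 0.32 (SE) had limma adjusted p of 0.316 and 0.360, and of 0.0324 and 0.0327 without injured replicate 2.

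Nars, for asparagine and the most abundant of these 13 by mean level, was at 21.4, 26.1 and 22.5 and at 38.1, 23.1 and 48.8 FPKM, overlapping through injured replicate 2. The lowest change was that of Sars, for serine, at 0.11 ± 0.26 (SE). The 6 synthetases of the multisynthetase complex (Eprs, Iars, Kars, Lars, Mars and Rars) had a median change of 0.69, from 0.37 to 1.01, and the 7 others one of 0.60, from 0.11 to 1.28, a difference that was not tested. The 4 genes whose promoters are shown with a CARE core had changes of 1.28 (Gars), 0.60 (Tars), 0.53 (Iars) and 0.53 (Yars). The promoters of Eprs, Kars, Mars and Sars held no core in this window, and those of the other 5 were not matched, so changes with and without it are not compared.

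The mitochondrial synthetases, which are nuclear genes that serve translation inside mitochondria, had 0 of 8 genes whose groups did not overlap, where 12.0% of all genes lay wholly higher and 6.75% wholly lower. Lars2 stood far above the others, at 404, 334 and 698 FPKM in uninjured and at 276, 575 and 469 in injured libraries. The groups of Lars2 overlapped widely, and its mean over the 6 libraries ranked 26 of all entries, while that of the cytosolic Lars was 9.70 FPKM. Iars2 was at 7.85 ± 0.412 and 8.75 ± 1.71 FPKM (SD, n = 3), and Nars2, with the lowest change at -0.33 ± 0.36 (SE), at 9.84, 5.65 and 3.91 and at 5.45, 3.51 and 5.07. Rars2 was listed at the lowest value of the table, 0.001, in uninjured replicate 1 and at 9.19 and 7.10 in the others, against 6.27, 18.2 and 7.55 FPKM in injured libraries. Its change of 1.28 ± 0.95 (SE) was 0.22 without uninjured replicate 1.

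Among the argonautes Eif2c2, now Ago2, was at 2.55, 2.13 and 3.46 FPKM in uninjured and at 5.53, 4.66 and 9.47 in injured libraries, without overlap (change 0.99 ± 0.35 (SE), limma adjusted p of 0.369). Eif2c1 was at 7.65 ± 0.619 and 7.39 ± 1.89 FPKM and Eif2c4 at 6.04 ± 1.69 and 4.06 ± 2.37 (SD, n = 3). The changes of the argonaute genes thus had both signs.

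For 5 pairs of related members the log2 ratio within a library, with 1 added to each FPKM, was compared by a two-sided exact permutation test, which cannot give a p below 0.10 with 3 against 3 libraries. Eif4ebp1 to Eif4ebp2 was at -2.90, -2.01 and -1.96 in uninjured and at -1.49, -1.92 and -1.98 in injured libraries (difference 0.49, exact p = 0.20, adjusted p = 0.833 over the 5 pairs). The ratio of Eif2s1 to Eif2s2 went from a mean of -0.64 ± 0.49 to 0.12 ± 1.08 (SD, n = 3, exact p = 0.50). For Eef1a1 to Eef1a2 the difference was 0.58 (exact p = 0.50), or 1.11 with 0.1 added in place of 1, since Eef1a2 is low. Eif4e to Eif4e2 differed by -0.09 (exact p = 0.90) and Eif4g1 to Eif4g3 by -0.02 (exact p = 1). The last was at 0.26, -0.90 and 0.45 in injured libraries against 0.09, -0.28 and 0.06 in uninjured ones, so that injured replicate 2 held the lowest share of Eif4g1.

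The related genes were read from 5 lists, with no member past the threshold by limma over the 6 libraries in any of them. Of 12 mTORC1 pathway genes with an entry 7 had changes above 0, with a median of 0.04 and 0 of 12 with an unadjusted p under 0.05, where 62.9% of all genes had a change above 0 and 7.15% a higher and 4.04% a lower one at that p. The GTPase gene Rheb, which switches on mTORC1, was at 67.2 ± 31.8 and 77.7 ± 41.3 FPKM, and Rps6, a ribosomal protein phosphorylated downstream, at 58.8 ± 8.30 and 50.9 ± 6.87 (SD, n = 3). Neither of these differences exceeded the spread between libraries.

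Of 19 genes of the integrated stress response 12 had changes above 0 (median 0.31), a share near the 62.9% of all genes. Of these 19, 3 positive and 2 negative changes had an unadjusted p under 0.05, against 7.15% and 4.04% of all genes. Its central factor Atf4 was at 59.3, 55.5 and 71.4 FPKM in uninjured and at 80.3, 53.5 and 110 in injured libraries, with injured replicate 2 the lowest of all. Slc3a2, a subunit of amino acid transporters, was at 140 ± 18.8 and 148 ± 45.6 (SD, n = 3). Without injured replicate 2 the serine synthesis gene Psph passed as lower, being listed at 0.001 in every injured library and at 7.81, 9.95 and 9.55 FPKM in uninjured ones. Asns, the asparagine synthetase and a target of ATF4, was picked after its values were seen, at 7.64, 7.09 and 12.1 and at 19.1, 14.6 and 17.4 FPKM without overlap (change 0.88, limma adjusted p of 0.316).

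The list of termination, recycling and initiation helpers had 16 of 18 changes above 0 and a median of 0.38, and 3 of the positive ones had an unadjusted p under 0.05, against 62.9% and 7.15% of all genes. Pabpc1, which binds the poly(A) tail, was at 95.3, 125 and 116 FPKM in uninjured and at 234, 102 and 900.2 in injured libraries, a range set mostly by injured replicate 3, and the release factor gene Etf1 was at 24.6 ± 4.24 and 32.0 ± 14.1 (SD, n = 3). Abce1, which splits ribosomes after termination, passed as higher without injured replicate 2 (limma adjusted p of 0.0329), at 17.7, 12.8 and 12.9 and at 37.5, 17.5 and 36.1 FPKM.

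For mitochondrial translation factors 8 of 8 changes were above 0, with a median of 0.51, and 2 of them had an unadjusted p under 0.05, against 62.9% and 7.15% of all genes. The elongation factor gene Gfm1 was at 8.03, 9.41 and 8.19 FPKM in uninjured and at 24.8, 9.62 and 17.5 in injured libraries, without overlap, and it passed as higher without injured replicate 2. Gatc, a subunit of an enzyme that completes glutamine tRNA, was at 13.9 ± 0.716 and 17.8 ± 1.43 (SD, n = 3), without overlap. Of 6 further genes of tRNA charging 5 had changes above 0 with a median of 0.31, and 1 of these had an unadjusted p under 0.05, against the same shares of all genes. Farsb, for phenylalanine, was at 36.1 ± 10.3 and 41.8 ± 2.48 FPKM and the complex scaffold Aimp1 at 24.3 ± 2.53 and 26.1 ± 2.46 (SD, n = 3), so neither differed beyond the spread of its libraries.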

How the data were processed

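RNA of sorted cells from 3 uninjured and 3 injured pools of mice was sequenced (polyA RNA, Nextera XT, per the labels' protocols). The submitters' processing notes name FastQC, TopHat, Cuffdiff and mm9, with no versions or roles. The deposited table holds 1 value per gene and library, taken as FPKM from those tools and from the values, since the table names no unit. Its lowest value is 0.001, and 131 of 8078 entries join several symbols. Whole reads could not be recovered from the steps of low values, so depth is unknown and no counting error can be given.

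Values were tested as log2(FPKM + 1) for the 7987 genes with a mean of at least 1, using limma 3.58.1 in R 4.3.3 (trend and robust steps), with Benjamini-Hochberg adjustment over all of them and a threshold of 0.05. All adjusted p-values for genes come from limma. The fit was run on simulated data with known changes, drawn for both groups with the spread of the uninjured libraries. A wider spread of injured libraries was not simulated, so this does not show how the fit performs on these data. The named genes are the members past the threshold with all libraries or without injured replicate 2, the 2 most abundant and the extreme changes of each role group, the kinases, the 4E binding partners and the paralogue pairs, and of each related list the genes past the threshold or the 2 most abundant. Alternatives were other pseudocounts, filters, scalings and variance models, a replicate block, and each library left out. The values of 1 member are not reported here, though counts and medians include it. The members and lists were chosen with earlier results of these data known. Promoters are from RefSeq (GRCm38.p6) and were matched by symbol, since that build differs from mm9.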

Additional observations from a re-analysis of the deposited data

How the results depend on the processing

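With unknown depth, counting error could not be set apart from other spread. Over all genes limma called 3 higher and 3 lower without its trend and robust steps, 2 lower at a pseudocount of 0.1, 4 lower under quantile normalization and 3 lower under upper-quartile scaling. At an unadjusted p under 0.05 there were 14 members higher. Members wholly lower numbered 1 under quantile normalization, 2 under upper-quartile scaling and 3 with Mir703 left out. Under these 3 scalings in that order Eef1a1 was at -0.022, -0.055 and -0.027, Eif4b at -0.13, -0.16 and -0.13, and Iars2 at -0.048, -0.046 and -0.021. The members' median stayed between 0.22 and 0.45 over the scalings, filters and pseudocounts tried.

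Leaving out 1 library at a time gave 0 to 278 genes higher and 1 to 92 lower, 0 to 9 members higher, 19 to 40 members wholly higher and 0 to 3 wholly lower, and a members' median of 0.30 to 0.56. The highest counts of calls came without injured replicate 2, the only library whose removal gave any call among the members. The sign turned for 11 named genes, over ranges of -0.075 to 0.346 (Eef1a1), -0.762 to 0.177 (Eef1g), -0.387 to 0.192 (Eef2k), -0.193 to 0.081 (Eif1b), -0.081 to 0.099 (Eif2a), -0.159 to 0.067 (Eif2b1), -0.242 to 0.038 (Eif2c1), -0.319 to 0.157 (Eif3f), -0.064 to 0.162 (Eif4b), -0.00 to 0.255 (Iars2) and -0.339 to 0.193 (Lars2). Among the ratios the sign turned for Eif4e to Eif4e2 (-0.619 to 0.339) and Eif4g1 to Eif4g3 (-0.277 to 0.401), while Eef1a1 to Eef1a2 ranged from 0.079 to 1.37, Eif2s1 to Eif2s2 from 0.152 to 1.184 and Eif4ebp1 to Eif4ebp2 from 0.189 to 0.658. The cause was not tested.

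The replicate numbers were not shown to pair the libraries. Same-numbered deviations correlated at -0.089, 0.068 and -0.078, and not every library correlated best with its own number. With so few libraries per group this cannot exclude a pairing. The replicate block gave 134 genes higher and 87 lower, with 4 members higher (Eif2s1, Eif5a, Gars and Rars2), of which 2 were among the 9 called without injured replicate 2. The cause was not tested.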
